A study of Brassica juncea with 4 samples.

Results

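miR156 and miR157 are closely related plant miRNA families that guide the cutting of transcripts of SPL (SQUAMOSA PROMOTER BINDING PROTEIN-LIKE) transcription factors. Their sequences and their SPL targets were examined in floral buds of Brassica juncea, in a cytoplasmic male sterile (CMS) line and its maintainer fertile (MF) line. The members were every profiled entry of the miR156 and miR157 families, from either arm of the hairpin, and every gene with a degradome site of these miRNAs. This gave 19 of 288 entries with values, which fell to 14 of 248 distinct sequences, and 7 of the 446 genes with a site in either degradome library. The CMS plants carry a cytoplasm that came from B. rapa, and after many backcrosses their nuclear background is that of the MF line. All buds of an inflorescence were taken at flowering under long days and pooled from several plants, so buds of many stages were mixed in each sample. Each line had 1 small RNA library and 1 degradome library, with no replicate, so that each test compares libraries and not lines, and intervals cover counting error only.

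In plants a miRNA is cut from a hairpin as a duplex of the 5p and the 3p arm, and in the miR156 and miR157 families the 5p arm is the one known to guide cleavage. In Arabidopsis, high miR156 keeps the plant juvenile by holding SPL transcripts low, and as miR156 declines the SPL proteins promote flowering, in part through miR172, which acts against AP2-like genes. SPL genes also act in anthers of Arabidopsis, where they contribute to male fertility together with SPL8, which has no miR156 site. All gene and miRNA names here are those of the Arabidopsis sequence to which the B. juncea reads were matched.

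The 4 sequences of the 5p arm are shown first because that arm is the known guide of SPL cleavage, and capitals mark bases 2 to 8, the seed.
ath-miR156a: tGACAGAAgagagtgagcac
ath-miR156j: tGACAGAAgagagagagcac
ath-miR156h_L+1: tTGACAGAagaaagagagcac
ath-miR157d_L+1: tTGACAGAagatagagagcac
The suffix L+1 marks a sequence with 1 base more at its 5′ end than the miRBase sequence of that name. They fell into 2 groups by seed: ath-miR156a and ath-miR156j, of 20 nt, with the seed GACAGAA, and ath-miR156h_L+1 and ath-miR157d_L+1, of 21 nt, with the seed TGACAGA. Within the first group, counted from the 5′ end, ath-miR156j carries T14A relative to ath-miR156a. Within the second, ath-miR156h_L+1 carries T12A relative to ath-miR157d_L+1. The sequence of ath-miR156a is that of 6 entries, ath-miR156a to ath-miR156f, and the sequence of ath-miR157d_L+1 is the mature sequence of ath-miR157a, ath-miR157b and ath-miR157c in miRBase. Their reads therefore cannot be assigned to 1 hairpin.

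Of the 10 sequences of the 3p arm, those with no base substituted against the Arabidopsis hairpin are shown, with bases 2 to 8 again in capitals.
ath-MIR156b-p3: tGCTCACCtctctttctgtcagt
ath-MIR156a-p3: tGCTCACTgctctttctgtcaga
ath-MIR156c-p3: tGCTCACTgctctatctgtcaga
ath-MIR156e-p3: gCTTACTCtctctctgtcacc
ath-MIR157a-p3: gCTCTCTAgccttctgtcatc
Relative to ath-MIR156b-p3, ath-MIR156a-p3 differs by C8T, T9G and T23A, so the 3p sequences of different hairpins can be told apart where the 5p sequence cannot. The hairpins of ath-MIR156a and ath-MIR156b are printed to show how both arms lie in them. In the deposited hairpin sequences, the capitals mark the 5p and then the 3p arm.
ath-MIR156a: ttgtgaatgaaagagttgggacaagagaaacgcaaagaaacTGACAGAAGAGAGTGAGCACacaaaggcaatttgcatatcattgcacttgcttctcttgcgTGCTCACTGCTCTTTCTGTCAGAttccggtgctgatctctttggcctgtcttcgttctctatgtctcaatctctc
ath-MIR156b: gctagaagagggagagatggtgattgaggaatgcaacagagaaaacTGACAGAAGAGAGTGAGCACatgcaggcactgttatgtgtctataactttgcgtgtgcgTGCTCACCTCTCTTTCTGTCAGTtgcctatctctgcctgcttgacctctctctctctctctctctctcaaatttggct
The hairpin of ath-MIR156a was placed on chromosome 2 of Arabidopsis (TAIR10) from 10676418 to 10676594 on the minus strand, with a folding energy of -75.1 kcal/mol. That of ath-MIR156b was placed on chromosome 4 from 15074899 to 15075081 on the plus strand, with -92.9 kcal/mol. By the deposited structures, 6 of the 10 sequences of the 3p arm lay opposite the 5p arm with ends shifted by at most 2 nt, the form of a cut duplex. The other 4 (of the hairpins ath-MIR156d, ath-MIR156h, ath-MIR157c and ath-MIR157d) were shifted by 16 to 28 nt and differed from the Arabidopsis hairpin at 6 to 9 bases. Among the 6, ath-MIR157a-p3 could be compared only where the 5p arm ends, with a shift of 2 nt.

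The small RNA libraries held 7331757 mappable reads in MF and 3192676 in CMS. Over the distinct sequences of the profile, 90880 reads in MF against 105033 in CMS were miRNA reads. The 14 sequences together took 654 of these in MF (0.720%) and 427 in CMS (0.407%). These shares depend on the other sequences, of which ath-miR319a alone had 50580 reads in MF and 74029 in CMS. For each 1000000 mappable reads, the 14 sequences had 89.2 reads in MF and 133.7 in CMS. All 14 were read in MF, whereas 6 were read in CMS and 8 had 0 reads there. A count of 0 corresponds to at most 3 reads, or 0.940 for each 1000000 mappable reads in CMS. Of all 248 sequences, 75 were read in MF alone.

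The 3p arm held most of the reads of these hairpins. The sequence with the most reads was ath-MIR156b-p3, with 419 reads in MF against 358 in CMS. ath-MIR156e-p3 had 102 reads in MF against 8 in CMS, and ath-MIR156a-p3 had 56 in MF against 0 in CMS. On the 5p arm, ath-miR156a had 20 reads in MF against 4 in CMS, ath-miR156h_L+1 had 16 in MF against 42 in CMS, ath-miR157d_L+1 had 12 in MF against 3 in CMS, and ath-miR156j had 3 in MF against 0 in CMS. ath-MIR157a-p3 was read 2 times in MF against 12 in CMS. As deposited, ath-miR156h_L+1 and ath-MIR157a-p3 had more reads in CMS, and all the others had fewer. These reads are not scaled between the libraries, and with the deposited scaling ath-MIR156b-p3 had a log2 ratio of 0.09. The 9 sequences with under 20 reads over both libraries, at 1 to 15 reads each, had 41 reads in MF against 15 in CMS, and 7 of them had 0 in CMS.

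**Figure D1:**
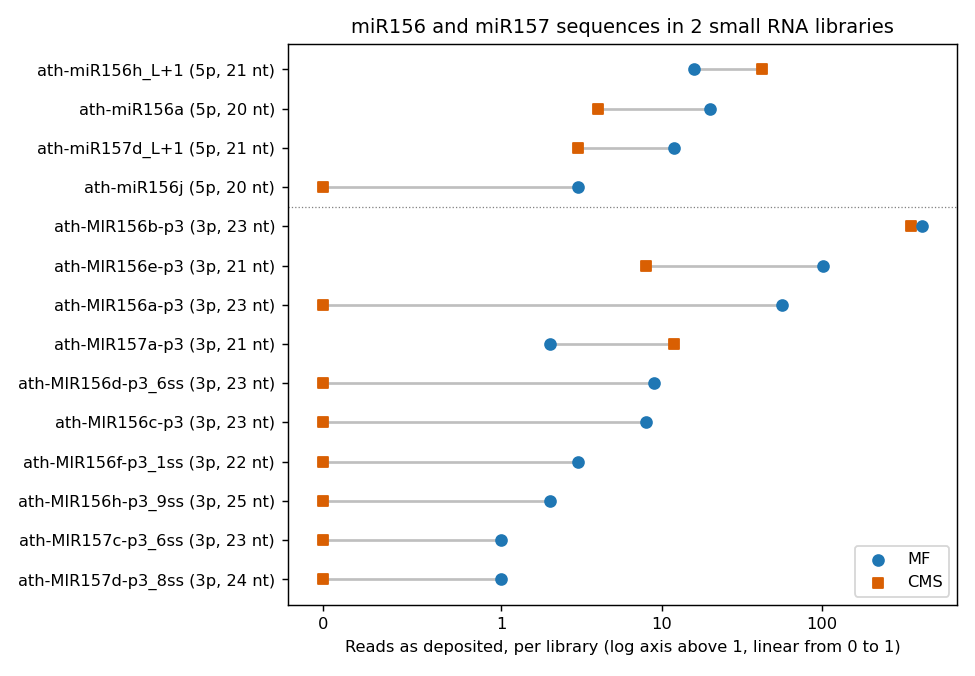
Reads of the 14 miR156 and miR157 sequences as deposited, 1 row per sequence with its arm and length, on an axis that is logarithmic above 1 read and linear from 0 to 1. Circles are MF and squares CMS, and 8 squares lie at 0, while ath-MIR156b-p3 has 419 and 358 reads.

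After the deposited scaling, which multiplied MF reads by 0.896 and CMS reads by 1.12, ath-MIR156e-p3 fell 10.2-fold in the CMS library, with a log2 ratio of -3.36 (95% exact interval -4.61 to -2.32). ath-MIR156a-p3, at 0 reads in CMS, was at least 15.0-fold lower with 3 reads set in place of 0, and its exact interval ended at a log2 ratio of -3.56. Both were called, as was ath-miR156h_L+1, which rose 3.27-fold with a log2 ratio of 1.71 (0.85 to 2.64). A sequence was called when the Audic and Claverie probability was under 0.01 divided by the 248 sequences and Fisher's exact and the chi-squared test were under 0.01. Among the 14 members, 2 were called lower and 1 higher in CMS, beside 8.87% of all 248 sequences called lower and 5.24% called higher.

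The most abundant member was not called. ath-MIR156b-p3 had a log2 ratio of 0.09 (-0.12 to 0.30), an interval that leaves out the fall of ath-MIR156e-p3. ath-miR156a had -2.01 (-4.01 to -0.43), ath-miR157d_L+1 had -1.68 (-4.15 to 0.21) and ath-MIR157a-p3 had 2.90 (0.73 to 6.10), and none of these was called. For the 6 members read in both libraries the median log2 ratio was -0.80, beside -0.05 for the 153 such sequences in all. The total of the 14 and these ratios depend on the scaling, since reads per mappable read shift every log2 ratio by 0.88 upwards and reads per miRNA read shift it by -0.52. With the first, ath-MIR156b-p3 was called higher (log2 ratio 0.97) and with the second lower (-0.44), whereas ath-MIR156a-p3 and ath-MIR156e-p3 were called lower under both. The call of ath-miR156h_L+1 was lost per miRNA read, at a log2 ratio of 1.18.

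**Figure D2:**
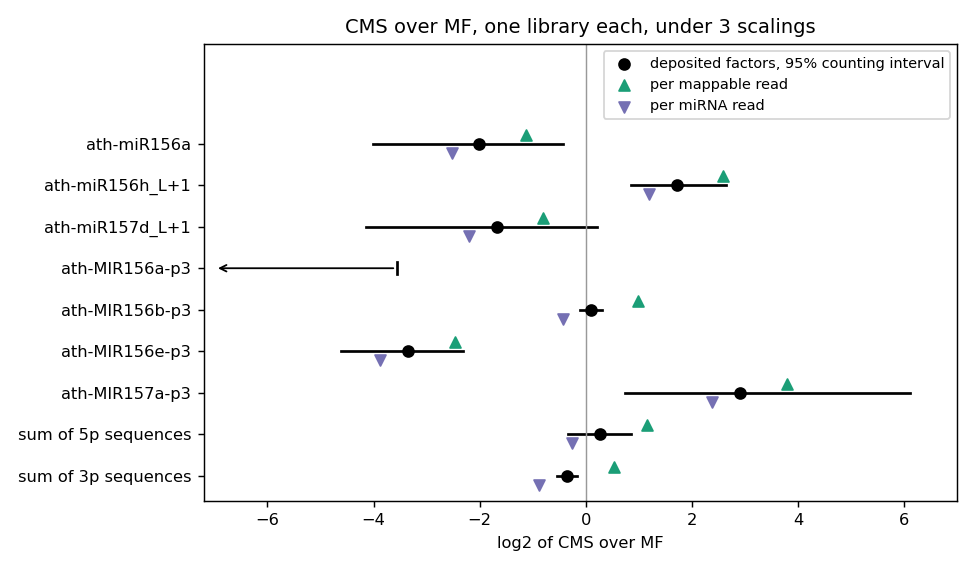
Log2 ratio of CMS over MF for 7 member sequences and the sums of the 5p and 3p arms, 1 library each. Black points with bars are the deposited scaling with 95% exact counting intervals, triangles the ratios per mappable read and per miRNA read, and the arrow marks ath-MIR156a-p3, with 0 reads in CMS, whose interval ends at -3.56.

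Ratios between members of the same library do not depend on the scaling. For each 100 reads of ath-MIR156b-p3 there were 24.3 reads of ath-MIR156e-p3 in MF and 2.23 in CMS, an odds ratio of 0.0920 for CMS over MF (95% exact interval 0.0381 to 0.192). For ath-MIR156a-p3 there were 13.4 reads in MF against 0 in CMS, with an upper bound of 0.0806 on the odds ratio. The guide ath-miR156a went from 4.77 to 1.12 reads per 100, with an odds ratio of 0.234 (0.0577 to 0.709). The guide ath-miR156h_L+1 went from 3.82 to 11.7, with an odds ratio of 3.07 (1.66 to 5.95). ath-MIR156b-p3 thus made up 69.5% of all 3p reads of the members in MF (65.6 to 73.1) and 94.7% in CMS (91.9 to 96.7).

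Summed over members, the 5p arm had 51 reads in MF against 49 in CMS, a log2 ratio of 0.26 (-0.34 to 0.85). The 3p arm had 603 and 378 reads, a log2 ratio of -0.36 (-0.55 to -0.17), which turned to 0.53 per mappable read. Without ath-MIR156b-p3 the 3p arm had 184 and 20 reads, a log2 ratio of -2.89 (-3.63 to -2.22). The 3p arm made up 92.2% of the reads of the members in MF (89.9 to 94.1) and 88.5% in CMS (85.1 to 91.4), with an odds ratio of 0.653 for CMS over MF (0.423 to 1.01). Without ath-MIR156b-p3 these shares were 78.3% in MF and 29.0% in CMS, so that 1 sequence sets the share in CMS.

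The share of the arm opposite the listed miRNA was compared over the hairpins of the profile. Of 35 hairpins in MF with both arms read and at least 20 reads, the median share of the opposite arm was 4.67%, and 7 were over 50%. Among these 7 were ath-MIR156b with 95.4%, ath-MIR156e with 83.6% and ath-MIR156a with 73.7%, at places 2 to 4 behind ath-MIR169e with 96.3%. Of 28 such hairpins in CMS, with a median of 5.79%, 7 were again over 50%, and ath-MIR156b, the only miR156 hairpin among them, was first with 98.9%. Of the hairpins over 50%, 4 of 7 in MF and 6 of 7 in CMS belonged to other families, which also supplied most of the hairpins compared. In MF, ath-MIR156d, ath-MIR156c and ath-MIR156f were the other miR156 hairpins compared. They lay at places 10, 11 and 14 of 35, above the median. The 3p sequence counted for ath-MIR156d was shifted by 17 nt against the 5p arm, so its share is not that of a cut duplex. In CMS, ath-MIR156b was the only miR156 hairpin compared. There ath-MIR156e had 66.7%, but with 4 reads on the 5p arm and 8 on the 3p arm it was under the limit of 20 reads. An excess of miR156 hairpins over 50% was not tested. All reads of ath-miR156a were counted for each of its 6 hairpins, which makes each share the lowest possible. In the 3 families with the most reads on hairpins with both arms, the opposite arm took 0.176% of the reads in MF for miR319, 1.59% for miR159 and 7.90% for miR167, and 0.131%, 0.213% and 8.61% in CMS. In miR169, chosen after its values were seen, it took 93.1% in MF and 93.2% in CMS, beside 92.6% and 88.2% in miR156 and miR157 counted in the same way, so a high share was not particular to these hairpins. The sequences are sorted here by arm and were not tested for a role as guides.

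**Figure D3:**
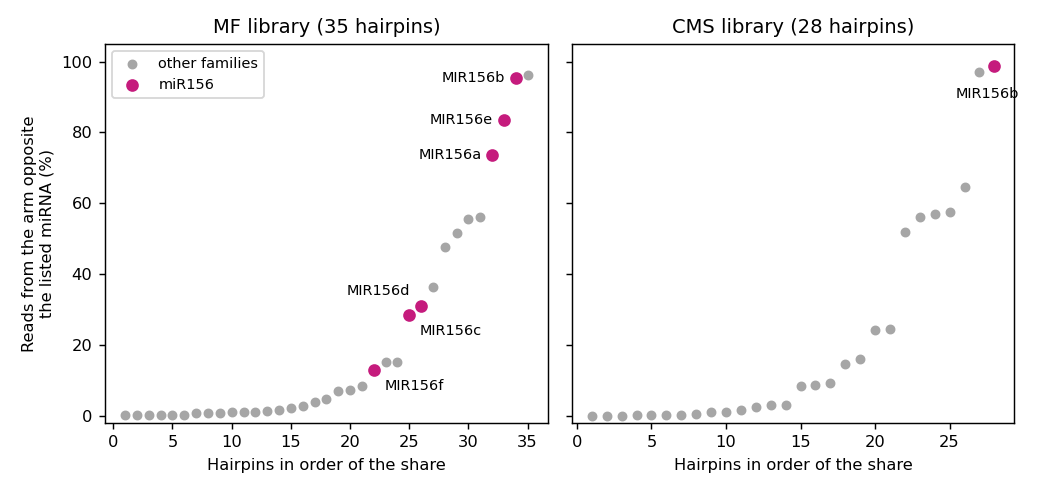
Share of reads from the arm opposite the listed miRNA for each hairpin with both arms read and at least 20 reads, 35 in MF and 28 in CMS, in order of the share. The miR156 hairpins are in pink, and ath-MIR156b lies at 95.4% in MF and 98.9% in CMS, beside medians of 4.67% and 5.79%, with hairpins of other families also above 50%.

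The forms of the 5p arm differed in length between the libraries. The 20-nt sequences had 23 reads in MF against 4 in CMS, a log2 ratio of -2.21 (-4.20 to -0.66), and the 21-nt sequences had 28 and 45, with an interval of 0.29 to 1.74 for the log2 ratio. The 21-nt forms were 54.9% of the 5p reads in MF (40.3 to 68.9) and 91.8% in CMS (80.4 to 97.7), an odds ratio of 9.03 (2.70 to 39.7). This split was chosen after the values were seen, and it rests on ath-miR156h_L+1, without which the odds ratio was 1.42 (0.179 to 10.0).

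In the degradome, which sequences the 5′ ends of cut polyadenylated transcripts, 7717843 reads in MF against 4967302 in CMS mapped to Arabidopsis cDNA. Sites of the members were listed in 6 genes in MF and 7 in CMS. They comprised SPL2, SPL4, SPL5, SPL6, SPL10 and SPL11 in both libraries, out of 11 SPL genes of Arabidopsis with a known site, and AT4G38900, annotated as a bZIP gene, in CMS alone with 1 read for ath-MIR156e-p3. SPL9, SPL13A, SPL13B and SPL15 were not listed, nor were any of the 6 SPL genes without a known site. SPL3 was listed in MF alone, for other small RNAs: 2 reads for ath-MIR5641-p5 and 1 for PC-3p-65.

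The pairing of the guides with the targets can be read from the deposited alignment scores, in which 0 is a perfect match. For the 20-nt sequences at the sites below, each mismatch added 1, doubled at bases 2 to 13. Scores that were not whole numbers, such as 2.5 for SPL6 with ath-miR156h_L+1 in CMS, are not covered by this rule. SPL2, SPL6, SPL10 and SPL11 had a score of 0 with ath-miR156j, and SPL4 with ath-miR156i, which fixes the site in the Arabidopsis transcript as the reverse complement. These sites are shown because the cut falls between the capitals, opposite bases 10 and 11 of a 20-nt guide.
SPL2, SPL6, SPL10 and SPL11: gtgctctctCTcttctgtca
SPL4: ctgctctctCTcttctgtca
The scores computed from these sites equalled the deposited ones for all 11 miRBase sequences of 20 nt in each of the 5 genes. ath-miR156a had a score of 1 against SPL10, and ath-miR156h_L+1 and ath-miR157d_L+1 had 2. SPL5 had no perfect match, and its lowest score was 1, with ath-miR156i. Since the 21-nt forms start 1 base earlier, CleaveLand predicted their cut 1 nt downstream of that of the 20-nt forms. The first position is called here the 20-nt register and the other the 21-nt register.

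SPL10 (AT1G27370) and SPL11 (AT1G27360), neighbours on chromosome 1 that act redundantly in Arabidopsis, carried nearly all the cleavage reads of the SPL genes. SPL11 (chromosome 1, 9501971 to 9503869, transcript AT1G27360.1 of 1504 nt) had 223 reads in MF against 357 in CMS at nucleotide 1263. SPL10 (chromosome 1, 9505201 to 9508280, transcript AT1G27370.1 of 2727 nt) had 224 and 356 at nucleotide 2378. Both were in category 0 in both libraries, the class in which the site is the single position with the most reads on the transcript. From the reads divided by hits, 221 of these reads in MF and 356 in CMS matched all 8 transcripts of both genes. In MF 2 reads were particular to SPL11 and 3 to SPL10, and in CMS 1 and 0, so the cleavage of SPL10 and of SPL11 cannot be told apart and the reads are counted once below.

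Joined, SPL10 and SPL11 had 226 reads in MF (29.3 for each 1000000 mapped reads) and 357 in CMS (71.9 for each 1000000). This was 2.45-fold higher in CMS, a log2 ratio of 1.30 (95% exact interval 1.05 to 1.54). In the exact binomial test over the 145 gene and site pairs listed in both libraries, with a limit of 0.01 divided by 145, the sites of SPL10 and SPL11 were both called higher, 2 of 7 sites of the members, but from the same reads. In all, 9.66% of the 145 sites were called higher and 1.38% lower, and the median log2 ratio of the 145 was 0.64, so the rise beyond the median was 0.66. Without scaling by depth the log2 ratio was 0.66 (0.42 to 0.91) and the call held. This is the same quantity as the rise beyond the median, since the median unscaled log2 ratio of the 145 was 0.

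SPL5 (AT3G15270, chromosome 3, 5140365 to 5141348), a small SPL gene that promotes flowering in Arabidopsis, had the next largest count. It had 18 reads in MF against 7 in CMS at nucleotide 655, in category 0 in both. Its log2 ratio of -0.73 (-2.23 to 0.60) was not called. For each 100 reads of SPL10 and SPL11 there were 7.96 reads of SPL5 in MF and 1.96 in CMS, an odds ratio of 0.247 (0.0857 to 0.631) that does not depend on depth. This ratio was chosen after the values were seen, and its interval makes no allowance for that choice. A difference between the libraries in this ratio was therefore not tested.

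The remaining SPL genes had few reads. SPL4 (AT1G53160), a close relative of SPL5, had 1 read in MF, in category 4, the class of single reads, and 3 in CMS, in category 0. SPL6 (AT1G69170), which acts in immunity in Arabidopsis, had 5 reads in MF against 2 in CMS at nucleotide 1307, and 3 reads in CMS alone at nucleotide 1308, the predicted cut of the 21-nt forms, in category 0. SPL2 (AT5G43270), which acts with SPL10 and SPL11 in the reproductive shoot, had 2 reads in CMS alone in the 20-nt register, and 3 reads in MF against 1 in CMS in the 21-nt register. At these counts no difference between the libraries was detectable.

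**Figure D4:**
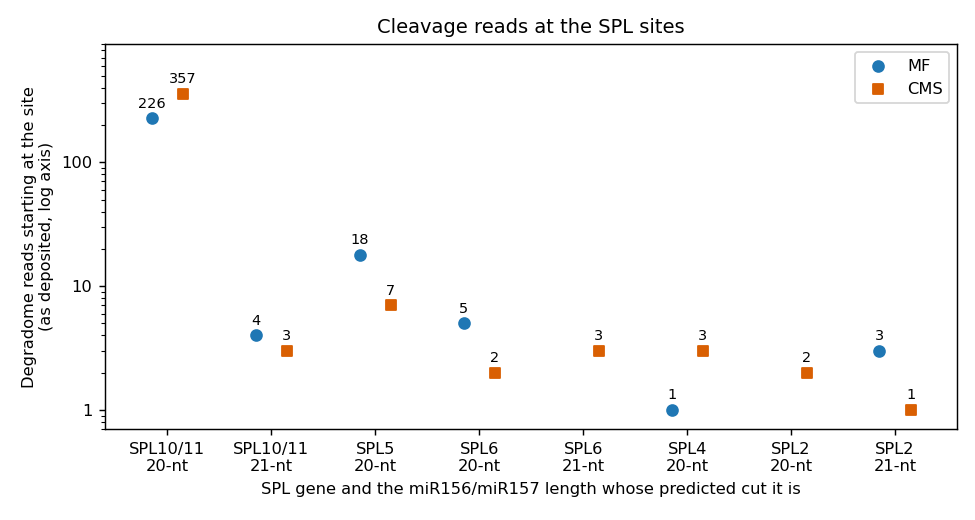
Degradome reads as deposited, on a log axis, at each SPL site and register, with circles for MF and squares for CMS and the count above each point. The joined site of SPL10 and SPL11 has 226 and 357 reads, SPL5 has 18 and 7, and every other site has at most 5, and a site not listed in a library has no point.

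Over all SPL genes, 7 of 257 listed reads in MF and 7 of 378 in CMS were in the 21-nt register. This was 2.72% in MF (1.10 to 5.53) and 1.85% in CMS (0.75 to 3.78), an odds ratio of 0.674 (0.199 to 2.28). The cleavage reads thus lay at the cut of the 20-nt forms in both libraries, although in CMS 45 of the 49 reads of the 5p arm were of 21 nt. Without SPL10 and SPL11 the 21-nt register held 3 of 27 reads in MF and 4 of 18 in CMS. The lists give no reads for sites that were not detected, so a site absent from a list is not shown to have had 0 reads.

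**Figure D5:**
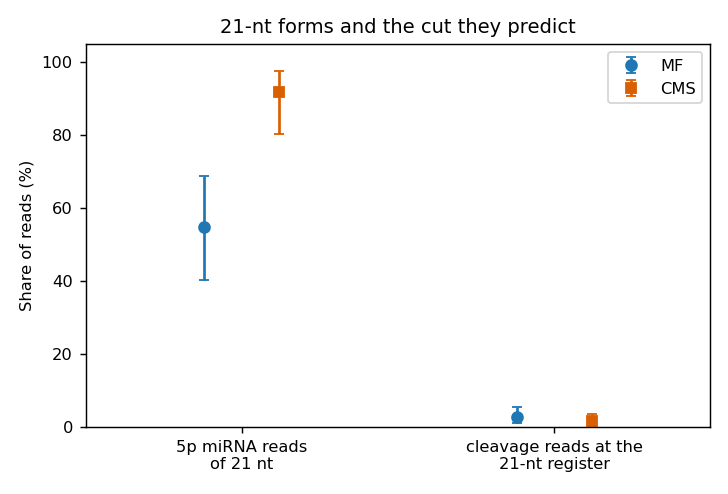
Share of 5p miRNA reads that were of 21 nt, and share of SPL cleavage reads at the cut predicted by 21-nt forms, in percent with exact 95% binomial intervals, circles for MF and squares for CMS. The miRNA shares are 54.9% and 91.8%, while the cleavage shares are 2.72% and 1.85%.

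With 51 and 49 reads of the 5p arm in the libraries, SPL10 and SPL11 were among the genes with the most cleavage reads. By the highest site of each gene, SPL10 and SPL11 were at places 4 and 5 of 335 genes in MF, and SPL11 and SPL10 at places 3 and 4 of 247 in CMS. SPL5 was at place 13 in MF and at place 36 in CMS. CleaveLand gave SPL10 and SPL11 p-values of at least 0.0504 in MF and 0.0388 in CMS, and SPL5 0.00304 and 0.00232 at the lowest. These p-values belong to the degradome of 1 library and do not compare the lines.

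With the scalings and limits used above, the later step of the pathway showed no called change. miR172, which rises as miR156 falls in Arabidopsis, was represented by 6 sequences with 85 reads in MF against 121 in CMS. They include the opposite-arm sequences ath-MIR172a-p5_3GT (7 reads in MF and 7 in CMS), ath-miR172b*_R+1 (15 and 23) and ath-MIR172c-p5 (8 and 3). Of the 6, 5 had more scaled reads in CMS and none was called in either direction (median log2 ratio 0.75). Over all 248 sequences, 8.87% were called lower and 5.24% higher, and the median of the 153 read in both libraries was -0.05. The mature sequence with the most reads, shared by ath-miR172c and ath-miR172d, had 29 reads in MF against 53 in CMS, a log2 ratio of 1.19 (0.51 to 1.89). Reads per mappable read would raise this ratio by 0.88. Calls of miR172 under other scalings or limits are not given here. Of the 6 AP2-like genes, 2 were listed. AP2 (AT4G36920), which specifies sepals and petals, had 11 reads in MF against 10 in CMS, a log2 ratio of 0.50 (-0.89 to 1.87), and TOE2 (AT5G60120), a repressor of flowering, had 5 and 2 (-0.69, -4.08 to 1.92). Neither was called. TOE1, TOE3, SMZ and SNZ were not listed.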

How the data were processed

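Small RNA and degradome libraries of MF and CMS floral buds were sequenced, 1 of each per line. The raw read counts per miRNA entry and their normalized scores were deposited by the authors, who scaled each library by a single factor (0.896 in MF and 1.12 in CMS, recovered from the most abundant entry) and matched reads to miRBase and the Arabidopsis genome (TAIR10). The aligner is not given in the sources used here. Cleavage site lists from CleaveLand hold read counts, a signal in which the deposited reads were divided by their number of transcript hits, an alignment score, a category and a p-value, as deposited by the authors. Degradome reads were scaled here by reads mapped to cDNA (7717843 in MF against 4967302 in CMS).

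Identical sequences were joined, and all tests were run on the whole table before the members were taken. The Audic and Claverie, Fisher's exact and chi-squared tests were applied to the deposited normalized values, and exact binomial intervals (Clopper-Pearson) and conditional odds ratios to raw counts. PCR reads are not independent molecules, so intervals cover counting error only. Python 3.11.15, scipy 1.17.1 and pandas 2.3.3 were used, and the functions were tested on simulated data. Alternatives were other scalings, limits, filters and subsets. Sequences with at least 20 reads and all SPL genes are named. The members and gene lists were chosen with earlier results of these data known.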

Additional observations from a re-analysis of the deposited data

How the results depend on the processing

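No paired analysis was possible because each line had 1 library per assay and the labels give no replicate numbers, and leaving out a replicate could not be done for the same reason. The number of members called lower in CMS was 2 under every scaling, limit and filter tried except per miRNA read, where ath-MIR156b-p3 made it 3, and 0.01 with no division, where it was 4. The number called higher was 1, but 3 per mappable read, 0 per miRNA read and 2 with no division. ath-MIR156b-p3 had a log2 ratio of -0.44 per miRNA read. The summed 5p arm gave 1.14 per mappable read and -1.68 for miR157 alone. The summed 3p arm gave 0.53 per mappable read, -0.88 per miRNA read and 1.90 for miR157 alone. That last value rests on 14 reads of ath-MIR157a-p3 and 1 read each of the 3p sequences of ath-MIR157c and ath-MIR157d. The share of 3p reads without ath-MIR156b-p3 was 78.3% in MF and 29.0% in CMS. Of the SPL sites, 2 were called higher in CMS, but 0 when CleaveLand p-values under 0.05 were required, since the values of SPL10 and SPL11 in MF lay above it, and 8 when transcripts were counted, since each gene has 4. The number of target genes in MF fell from 6 to 3 in category 0 alone and to 3 at a CleaveLand p-value under 0.05. Over all 248 sequences, the number called higher was 13, 44 per mappable read and 4 per miRNA read, and the number called lower was 22, but 10 per mappable read. Over the 145 sites, the number called higher was 14, 8 without scaling or by the median ratio, 6 for CleaveLand p-values under 0.05, 23 with no division and 24 for transcripts. Depth limits every member but ath-MIR156b-p3, ath-MIR156e-p3 and the joined SPL10 and SPL11 site to under 60 reads over both libraries. The split by length of the 5p arm, its value without ath-miR156h_L+1 and the joined SPL10 and SPL11 site were added after the data were seen.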
